A study of Homo sapiens with 6 samples.

Results

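Clustered protocadherins are cell-surface cadherins whose genes lie in 3 adjacent arrays, alpha, beta and gamma, on chromosome 5. The members were taken from the authors' deposited table by gene symbol alone. They numbered 53 of its 16953 genes: 15 alpha, 16 beta and 22 gamma genes. This gene family was chosen with earlier results of these data known, so it is not a set picked blind to the values. The study sequenced RNA of H1048, a human small cell lung cancer line of wild-type genotype by its label, in 2 groups of 3 samples: cells given the macrolide component isovalerylspiramycin I (ISP-I) at 10 µM, and control cells given DMSO, both for 48 h. Both groups came from this 1 cell line, grown in serum-containing medium with antibiotics. The authors' comparison is between a set of libraries lettered D to F and a set lettered A to C. No label used here says which of these sets received ISP-I, so a value below gives the level in D to F over that in A to C and is not to be read as an effect of the drug.

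Each member encodes a large extracellular region of cadherin repeats, a membrane-spanning segment and a short cytoplasmic tail. In the alpha and gamma arrays, every gene has its own promoter and its own first exon, which encodes the whole extracellular region, and is spliced to constant exons shared by all genes of the array; beta genes have no constant exons. Neurons switch on small combinations of these genes, and the proteins bind their own kind on opposing membranes, by which branches of the same neuron recognise and avoid each other. CTCF and cohesin bring the promoters to distant enhancers, and DNA methylation silences promoters that are not chosen. In several kinds of carcinoma the arrays are known to be silenced together by methylation.

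Most clustered protocadherin genes were called lower in libraries D to F, and none was called higher. In the authors' deposited table, 52 of the 53 members had an adjusted p, and 35 of them were lower at an adjusted p under 0.05. Among all 15976 genes tested there, 27.9% were lower by the same rule. No member was called higher, where 29.7% of all genes were; at an unadjusted p under 0.05 the count of members higher was also 0, and both p-values are from the authors' deposited table. The median log2 fold change over the 53 members was -2.49, which is 5.60-fold lower, against 0.06 over all genes of the authors' deposited table.

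Large decreases made up most of these calls. In the authors' deposited table, 30 members were called at least 4-fold lower, while 2.63% of all genes with an adjusted p were. At least 8-fold, 17 members were called lower against a background of 0.807%, and at least 2-fold, 34 against 11.3%, in the same deposited table. The members make up 0.313% of all genes listed there, 7.14% of the 420 genes called at least 4-fold lower and 13.2% of the 129 called at least 8-fold lower. These shares are descriptions, since genes of 1 array share exons or sequence and are not independent of each other. The plot of fold changes along the locus shows where the decreases lie.

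**Figure D1:**
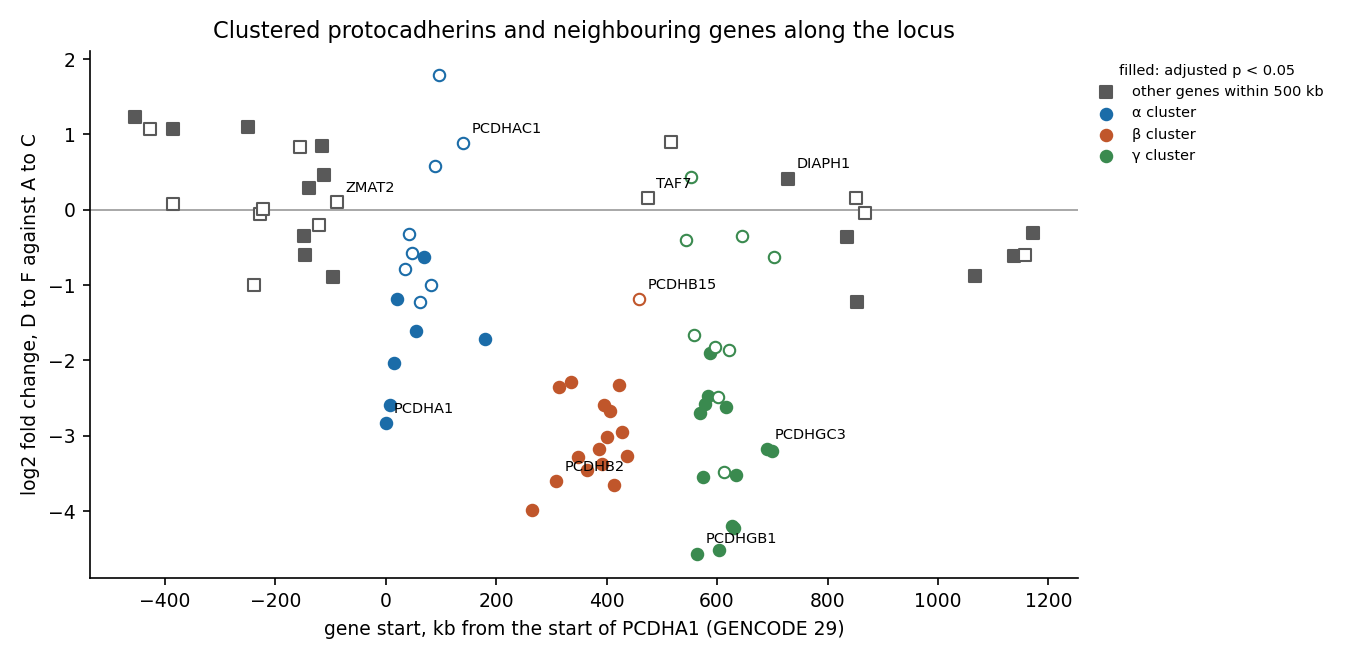
Log2 fold change of each gene (D to F against A to C, the authors' deposited values) against the distance of its start from the start of PCDHA1 in kb. Circles are the 53 members and squares the 28 other genes within 500 kb; filled symbols have an adjusted p under 0.05. All 16 beta genes and 21 of 22 gamma genes lie below 0, and the lowest of the neighbouring genes is FCHSD1 at -1.22.

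The 3 arrays lie head to tail on 1 strand. In GENCODE 29 (GRCh38), the alpha array spans 226.2 kb of chromosome 5 (140786136 to 141012347), the beta array 198.2 kb (141051135 to 141249365) and the gamma array 182.4 kb (141330571 to 141512981), and all 53 members are on the plus strand. Called in the authors' deposited table were 7 of 14 alpha members with an adjusted p, 15 of 16 beta members and 13 of 22 gamma members, all of them lower. The medians of the log2 fold change in that table were -1.0 for alpha, -3.10 for beta and -2.60 for gamma. Whether the arrays differ from each other was not tested. The longest unbroken run of called neighbours held 16 genes, from PCDHAC2, the last alpha gene, to PCDHB14.

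The beta array had the narrowest range of values. Its genes consist of a single coding exon and have no constant exons, though the sequences of some are alike, as described below. PCDHB2 (chromosome 5, 141094578 to 141098703) was 12.1-fold lower in the authors' deposited table, with a log2 fold change of -3.60 and an adjusted p of 5.23e-115, the 31st smallest p of all genes lower there. PCDHB11 was 12.6-fold lower (log2 fold change -3.65, adjusted p = 1.12e-33) and PCDHB14 9.61-fold lower (-3.26, adjusted p = 3.95e-17) in the same deposited table. PCDHB2 is thus the member with the smallest p and not the one with the largest fold change.

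The other beta genes called lay close to these. In the authors' deposited table, PCDHB1 had the lowest log2 fold change of the array (-3.99, adjusted p = 0.00381). PCDHB6 (-3.46), PCDHB8 (-3.38), PCDHB5 (-3.29), PCDHB7 (-3.18) and PCDHB9 (-3.01) were each more than 8-fold lower in the authors' deposited table. PCDHB13 (-2.95), PCDHB10 (-2.67), PCDHB16 (-2.59), PCDHB3 (-2.35), PCDHB12 (-2.33) and PCDHB4 (-2.28) followed, so that every called beta gene was at least 4-fold lower in the authors' deposited table. PCDHB15, the last gene of the array, was the exception: its value in the authors' deposited table was -1.19, with an adjusted p of 0.159.

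Gamma genes are of 3 kinds. The gamma A and gamma B genes alternate along the array and resemble each other within a kind, and the C-type genes PCDHGC3, PCDHGC4 and PCDHGC5 lie at its end, next to the constant exons. C-type genes are known as the isoforms that most neurons express, whereas the others are chosen at random. Of 12 gamma A genes 7 were called lower in the authors' deposited table, with a median log2 fold change over all 12 of -2.24. Of 7 gamma B genes 4 were called lower there, with a median of -3.48.

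The largest fold changes of any member were in these alternating genes, and their p-values were moderate. PCDHGB1 was 23.7-fold lower in the authors' deposited table (log2 fold change -4.57, adjusted p = 0.0041), the 17th lowest value of 15976 genes. PCDHGA8 (-4.51, adjusted p = 0.019), PCDHGB7 (-4.22, adjusted p = 0.000144) and PCDHGA10 (-4.20, adjusted p = 7.96e-06) came next in the authors' deposited table. The gamma A and B genes with the strongest tests were PCDHGB2 (11.7-fold lower, adjusted p = 1.84e-09 in the authors' deposited table) and PCDHGA10. Fold change and p thus ranked the gamma genes differently, as the plot of one against the other shows.

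Further alternating gamma genes were called at smaller fold changes. In the authors' deposited table these were PCDHGA11 (-3.52), PCDHGA4 (-2.70), PCDHGA9 (-2.62), PCDHGA5 (-2.58), PCDHGB3 (-2.47) and PCDHGA6 (-1.91). The 8 that were not called spread from PCDHGB5, at -3.48 with an adjusted p of 0.198, to PCDHGA2, at 0.44 with an adjusted p of 0.663, in the authors' deposited table. Between them lay PCDHGB4 (-2.49), PCDHGB6 (-1.86), PCDHGA7 (-1.82), PCDHGA3 (-1.66), PCDHGA1 (-0.40) and PCDHGA12 (-0.35) of the same deposited table. The uncalled values thus lay within the range of the called ones or above it, and a missing call does not show that a gene was the same in both sets.

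**Figure D2:**
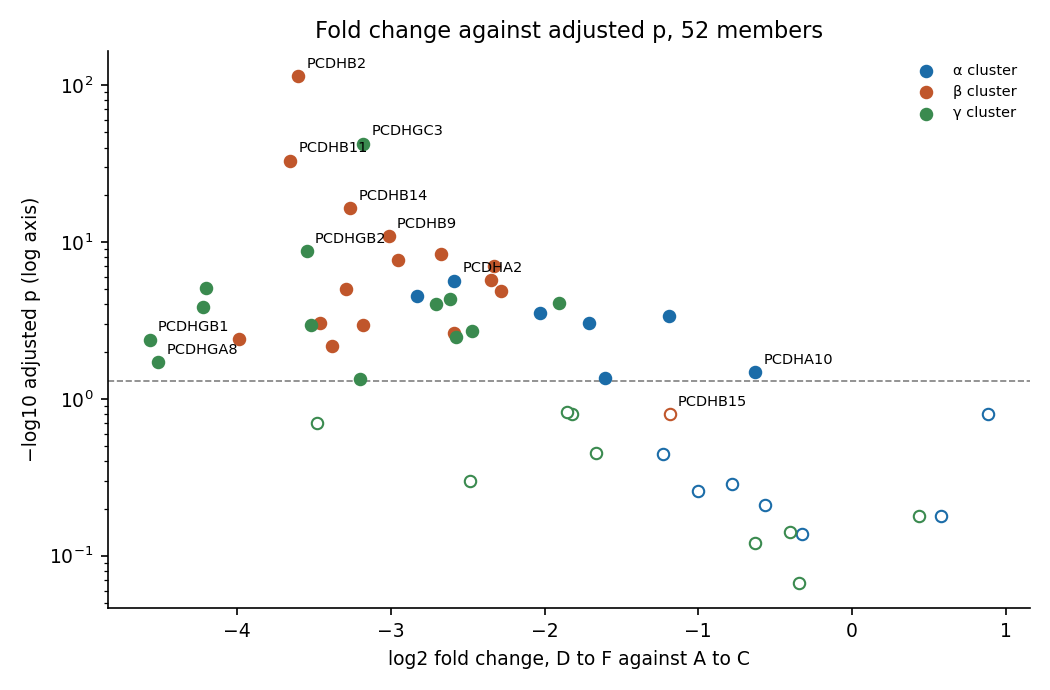
Log2 fold change (D to F against A to C) of the 52 members with an adjusted p against -log10 of the adjusted p, on a log axis; both are the authors' deposited values, and the dashed line is an adjusted p of 0.05. PCDHB2 (5.23e-115), PCDHGC3 (3.41e-43) and PCDHB11 (1.12e-33) stand highest, while the members farthest to the left, PCDHGB1 and PCDHGA8, lie just above the line.

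Among the 5 C-type genes, which close the alpha and gamma arrays, 3 were called lower. PCDHGC3 (chromosome 5, 141475947 to 141512979) was 9.06-fold lower in the authors' deposited table (log2 fold change -3.18, adjusted p = 3.41e-43). PCDHGC4 was listed there at a like size but near the threshold (-3.20, adjusted p = 0.0468), and PCDHGC5 was not called (-0.63, adjusted p = 0.759). PCDHAC2 was 3.27-fold lower in the authors' deposited table (-1.71, adjusted p = 0.000868), and its neighbour PCDHAC1 was not called (0.88, adjusted p = 0.157). All 3 calls among the C-type genes were thus lower, and the values of the uncalled ones lay on both sides of 0.

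PCDHGC4 was the called member nearest the threshold. On its other side, the nearest was PCDHGB6, with a log2 fold change of -1.86 and an adjusted p of 0.149 in the authors' deposited table.

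Within the alpha array the decrease was deepest at the start. The first gene, PCDHA1 (chromosome 5, 140786136 to 141012347), was 7.12-fold lower in the authors' deposited table (log2 fold change -2.83, adjusted p = 2.92e-05). PCDHA2 (-2.59, adjusted p = 2.11e-06), PCDHA3 (-2.03, adjusted p = 0.000282) and PCDHA4 (-1.19, adjusted p = 0.000412) followed in chromosomal order, each with a smaller fold change than the one before in the authors' deposited table. All 4 of these were called lower. From PCDHA5 to PCDHA13, 2 of the 8 genes with an adjusted p were called lower, near the share of 27.9% over all genes. Those 2 were PCDHA8 (-1.60, adjusted p = 0.0438) and PCDHA10 (-0.63, adjusted p = 0.0327) in the authors' deposited table, and both calls ended at an adjusted p under 0.01.

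Other alpha genes gave no call. In the authors' deposited table their log2 fold changes were -1.23 for PCDHA9, -1.0 for PCDHA11, -0.78 for PCDHA5, -0.57 for PCDHA7, -0.33 for PCDHA6 and 0.58 for PCDHA12. PCDHA13, at 1.79 with an unadjusted p of 0.614, had no adjusted p in the authors' deposited table and was the 1 member left out of the test. Across PCDHA1 to PCDHA13, the order along the chromosome and the deposited log2 fold change had a Spearman rho of 0.74 (13 genes of 1 array, which share constant exons and libraries), against 0.37 over the 16 beta genes and -0.27 over the 19 gamma A and B genes. The 13 alpha genes include PCDHA13, the last in order and the highest in value. These rho values are descriptions over genes, given without a p.

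**Figure D3:**
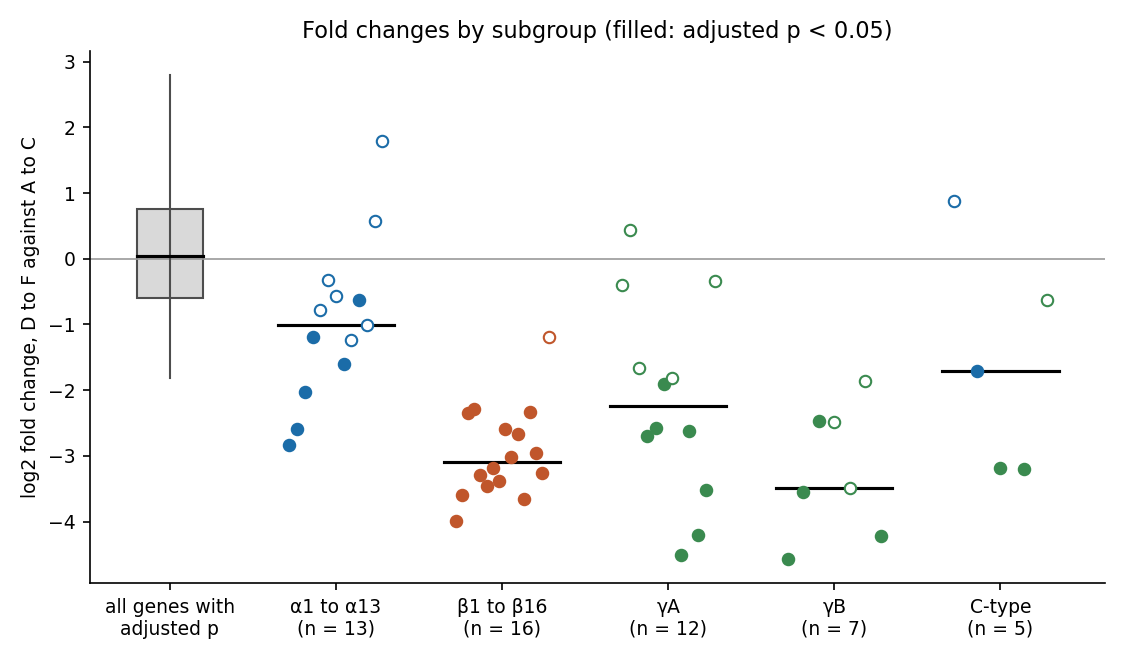
Log2 fold change of each member by subgroup, in chromosomal order within a column, with the median as a line; filled circles have an adjusted p under 0.05, and colours mark the arrays as in the plot along the locus. The box shows the median and quartiles of the 15976 genes with an adjusted p, with a line from the 5th to the 95th percentile; the beta genes lie between -3.99 and -1.19 and the gamma B genes between -4.57 and -1.86.

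Genes around the locus were called at about the rate of the whole table. In the authors' deposited table, 28 further genes lay within 500 kb of the outer members, 27 of them with an adjusted p; 8 were called lower and 7 higher, both near the shares of 27.9% and 29.7% over all genes, and their median log2 fold change was 0.04. None of the 28 was called at least 4-fold lower and 1, the endocytosis adaptor gene FCHSD1, at least 2-fold (-1.22 in the authors' deposited table, with an adjusted p of 3.50e-10). Before PCDHA1, the nearest gene, ZMAT2, was at 0.10 (adjusted p = 0.508), and the nearest after the gamma array, the formin gene DIAPH1, was 1.33-fold higher (0.41, adjusted p = 1.69e-05), both in the authors' deposited table. Between the beta and gamma arrays lies TAF7, a subunit of the general transcription factor TFIID, at 0.15 (adjusted p = 0.178) in the authors' deposited table, and the carrier gene SLC25A2, which had no adjusted p.

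Upstream of the locus, the growth factor gene HBEGF (1.23), the RNA coactivator gene SRA1 (1.10) and ANKHD1 (1.07) were higher in the authors' deposited table. The mitochondrial histidyl-tRNA synthetase gene HARS2 was lower there (-0.89), whereas HARS, its cytosolic counterpart next to it, was higher (0.46). Downstream, the histone deacetylase gene HDAC3 (-0.36), the mitochondrial stress relay gene DELE1 (-0.62) and the single protocadherin gene PCDH1 (-0.87) were lower in the authors' deposited table. Protocadherins outside the arrays were also lower where called. Of 12 such PCDH genes in the authors' deposited table, 10 had an adjusted p, 5 of them were called lower and none higher (against 27.9% and 29.7% of all genes), and the median over the 12 was -0.74. At an unadjusted p under 0.05 1 was higher in the authors' deposited table, PCDH8 (2.51). PCDH19 (-2.83, adjusted p = 1.58e-119) had a smaller p in the authors' deposited table than any clustered member, and PCDH17 (-2.70), PCDH10 (-1.5) and PCDH18 (-1.17) were called lower there besides PCDH1. The difference between these 12 and the clustered genes was not tested.

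How reads could be shared bears on each of these values. HTSeq is named in the submitters' processing notes; as background, it counts a read for a gene only where the read overlaps the exons of that gene alone, unless set otherwise, and neither the setting nor the annotation is named in these sources. In GENCODE 29, the constant exons of the alpha array belong to all 15 alpha genes at once and those of the gamma array to all 22 gamma genes. The share of a member's exonic bases covered by no other annotated gene had a median of 50.6% in alpha (36.9% to 78.7%), 56.1% in gamma (35.6% to 72.4%) and 94.9% in beta (75.1% to 100%). At least 2011 bases of every member were its own. By that default, a gene-level count in the alpha and gamma arrays would rest on bases outside the constant exons. The first exon held 83.7% to 84.8% of the coding bases in alpha and 86.5% to 87.0% in gamma. The own bases of some genes extend beyond that coding part. PCDHA4 had 10574 own bases, beside 2385 coding bases in its first exon.

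Sequence likeness between first exons was a second kind of sharing. Windows of 150 bases, the length of 1 read end by the labels, were cut from all annotated transcripts of each member. A median of 54.4% of the windows of an alpha gene, 57.7% of those of a gamma gene and 97.1% of those of a beta gene occurred in no other member. Within the coding part of the first exon alone, the medians were 100% for alpha, 94.5% for beta and 100% for gamma, so that most of these windows named 1 gene. The lowest were 75% for PCDHB10 and 77.6% for PCDHB13.

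**Figure D4:**
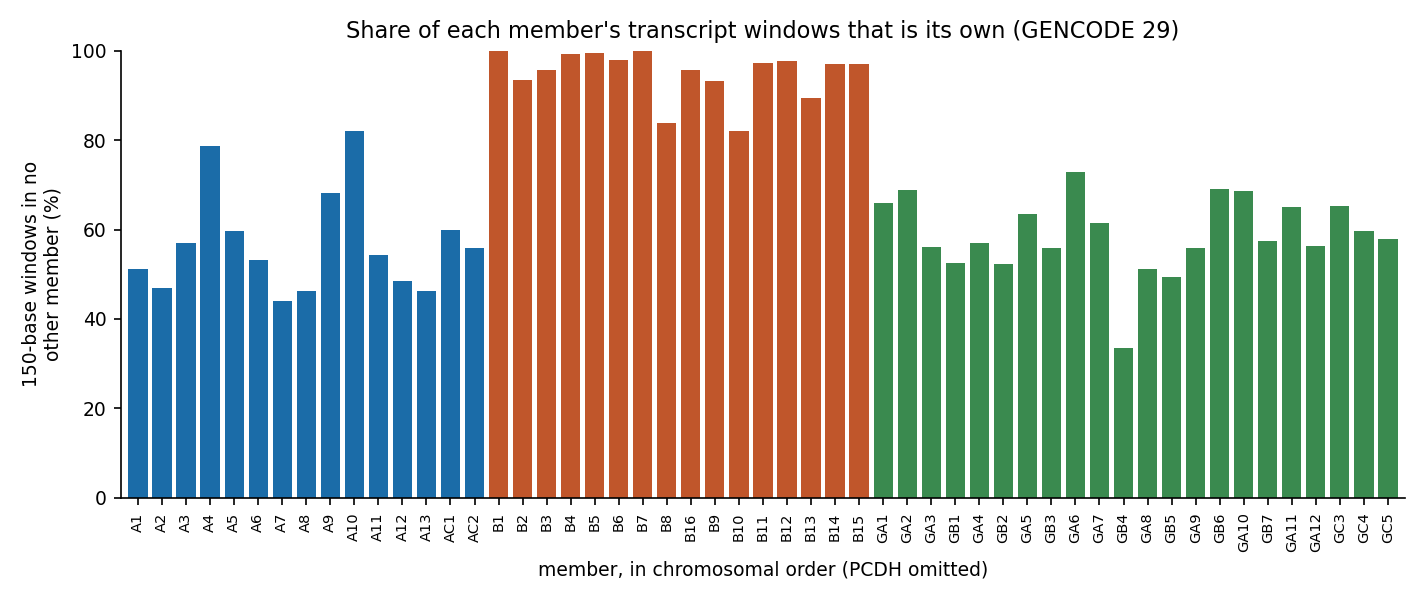
Percentage of the 150-base windows of each member's annotated transcripts (GENCODE 29) that occur in no other member, in chromosomal order; bars start at 0 and colours mark the arrays. Beta genes range from 82.0% to 100%, alpha genes from 43.9% to 82.1% and gamma genes from 33.4% to 72.8%.

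Close relatives were compared side by side. The most alike first exons were those of PCDHB8 and PCDHB13, with 94.1% of aligned coding bases identical; their log2 fold changes in the authors' deposited table were -3.38 and -2.95. PCDHB9 and PCDHB10 (92.9% identical) were at -3.01 and -2.67, and PCDHB11 and PCDHB12 (91.0% identical) at -3.65 and -2.33 in the authors' deposited table. In these 3 beta pairs both genes were called lower. The alpha pairs PCDHA6 and PCDHA8 (90.6% identical; -0.33 and -1.60) and PCDHA7 and PCDHA9 (89.7% identical; -0.57 and -1.23) held 1 call among 4 genes of the authors' deposited table, that of PCDHA8. PCDHGB4 and PCDHGB5 (84.7% identical) were at -2.49 and -3.48, neither called, in the authors' deposited table. How far reads passed between such pairs was not tested, so the value of a single gene in a pair is uncertain.

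Most promoters of these genes carry a shared element, known from earlier work as the conserved sequence element with a CGCT core, at which CTCF binds. RefSeq promoter windows (GRCh38.p14; 250 bases before to 50 after a start site) matched 47 of the 53 members, with PCDHA3, PCDHA13, PCDHB6, PCDHB11, PCDHGA12 and PCDHGC5 unmatched. The 5-base word CGCTG lay on the gene's strand in 40 of the 47, namely 8 of 13 alpha, 12 of 14 beta and 20 of 20 gamma genes, and in 30.7% of all 35116 promoter windows; on either strand the numbers were 41 and 48.0%. This word is short and common, so a match need not be the element. In PCDHAC2, for example, both matches overlap an annotated exon of a member. The letters of this word and the words below were chosen after looking at these promoters.

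Longer words were picked array by array. For each array, the 9-base word that overlaps the 5-base word and lay in the largest number of its genes was taken from the windows. Presence in its own array is thus given by the choice of the word, whereas absence from the other members is not. For alpha it was GATGTCGCT, in 9 of 13 alpha genes, no other member and 0.0740% of all promoter windows on the gene's strand (0.105% on either strand). GGTGGCGCT was in 13 of 14 beta genes, no other member and 0.302% of all windows (0.501% on either strand), and GCGCCGCTG in 10 of 20 gamma genes, no other member and 0.598% of all windows (1.28% on either strand). PCDHA9, PCDHA11 and PCDHB1 had none of these words in their windows, which says only that these letters are not in that stretch.

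The windows below place this element in members with and without a call, 5′ to 3′ on the plus strand, with CGCTG in capitals. Each holds 30 bases and lies before the RefSeq start site.
PCDHA1 (chr5:140786089-140786118): ggccacatgatgtCGCTGtacaccacaaag
PCDHA2 (chr5:140794784-140794813): agccacatgatgtCGCTGtccaccatagag
PCDHA8 (chr5:140841133-140841162): agccacatgatgtCGCTGtctaccaagaag
PCDHA5 (chr5:140821545-140821574): atccacatgatgtCGCTGgacaccggaagg
PCDHA6 (chr5:140827900-140827929): agccgcatgatgtCGCTGtctaccatgaag
PCDHB2 (chr5:141094547-141094576): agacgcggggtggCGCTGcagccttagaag
PCDHB4 (chr5:141121726-141121755): agacgcagggtggCGCTGcaggctaagttg
PCDHB10 (chr5:141192302-141192331): ggccacacggtggCGCTGcaggctaaagag
PCDHB13 (chr5:141213868-141213897): ggacgcgtggtggCGCTGcaggataagaag
PCDHB15 (chr5:141245317-141245346): caacgcatggtggCGCTGcaggctaaggct
PCDHGA4 (chr5:141354963-141354992): agactctgggtgtCGCTGttcaccaatcag
PCDHGA9 (chr5:141402717-141402746): ggactctgagcgcCGCTGttgatcaactct
PCDHGA10 (chr5:141412934-141412963): ggactctgagcgcCGCTGttcacctactag
PCDHGA2 (chr5:141338706-141338735): ggcctctgagcgtCGCTGttgaccacctaa
PCDHGB4 (chr5:141387620-141387649): tgactctgggcgcCGCTGttggccaaagtg
PCDHGB5 (chr5:141397866-141397895): tgactctgggcgcCGCTGttggccaaagtg

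Matches to these words were present in called and uncalled members alike. PCDHA5 and PCDHA6, which were not called, carry the alpha word like PCDHA1 and PCDHA2, and PCDHB15 carries the beta word like the called beta genes. PCDHGB4 and PCDHGB5 have identical windows. In members with 1 such word, it began a median of 41 bases before the start site in 7 alpha genes, 60 in 11 beta genes and 49 in 17 gamma genes. Of the 40 members with CGCTG in the window 29 were called lower in the authors' deposited table, and of the 7 without it 3. The difference was not tested. Among those without CGCTG, PCDHA4, PCDHA7 and PCDHA12 carry the alpha word and PCDHB14 the beta word, both of which end in CGCT. Of these, PCDHA4 and PCDHB14 were called lower. PCDHA9, PCDHA11 and PCDHB1 had none of the words, and PCDHB1 was called lower. These counts thus do not compare members with and without the element.

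Genes known to act on these promoters moved in both directions. Of 14 cohesin genes and genes that load, release or modify cohesin, 3 were lower and 7 higher in the authors' deposited table, beside backgrounds of 27.9% and 29.7%, with a median log2 fold change of 0.25. The ring subunits SMC1A (-0.90) and RAD21 (-0.61) were lower, and the deacetylase gene HDAC8, which recycles SMC3, was the lowest of the list (-1.28); the release factor WAPL was the highest (1.04), all in the authors' deposited table. The loader NIPBL (0.33) and STAG1 (0.68) were higher, whereas SMC3 (0.19, adjusted p = 0.0716) and STAG2 (0.09, adjusted p = 0.346) were not called there.

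Factors that bind at promoters and insulators were 2 lower and 4 higher of 7 in the authors' deposited table, beside 27.9% and 29.7% of all genes; at an adjusted p under 0.01 the 4 became 1, ZNF143. CTCF itself was 1.17-fold higher (log2 fold change 0.22, adjusted p = 0.0244) and ZNF143, a promoter-side partner in chromatin loops, 1.79-fold higher (0.84) in the authors' deposited table. REST (0.23) and YY1 (0.20) were also called higher, and MAZ (-0.55) and PATZ1 (-0.46) lower, in the authors' deposited table. CTCFL, the testis relative of CTCF, was not called (-2.33, adjusted p = 0.257).

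DNA methylation and silencing factors were 9 lower and 3 higher of 18 in the authors' deposited table, beside 27.9% and 29.7% of all genes, with a median of -0.51. The de novo methyltransferases DNMT3A (-1.30) and DNMT3B (-1.17) were each more than 2-fold lower, while the maintenance enzyme DNMT1 was higher (0.42) in the authors' deposited table. SMCHD1, a repressor known to act on these arrays, was 1.68-fold higher (0.75), and the zinc finger gene ZNF274 2.83-fold higher (1.5), in the authors' deposited table. The repressor TRIM28 (0.06) and its methyltransferase partner SETDB1 (0.08) were not called. Methylation of the promoters was not measured.

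The last 3 lists hold genes for proteins that act on or with the cytoplasmic tails, or in the cutting of protocadherins. Their counts stand beside 27.9% lower and 29.7% higher over all genes. Of 11 kinases and adaptors 6 were lower and 1 higher in the authors' deposited table, among them SRC (-1.08), PTK2B (-0.94), MARCKS (-0.93) and PTK2 (-0.54), the focal adhesion kinase that gamma and alpha tails inhibit. In the 10 genes of the WAVE complex, which drives actin branching and binds alpha tails, 5 were lower and 1 higher there, with CYFIP2 at -1.74 and CYFIP1 at -1.03 in the authors' deposited table. Of 8 genes for the proteolytic processing of protocadherins at the membrane, 4 were lower and 1 higher. The sheddase ADAM10 was 2.64-fold lower (-1.40) and the gamma-secretase subunit NCSTN at -0.95 in the authors' deposited table. No difference between these lists and the other genes was tested.

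Levels per library were not used, so the label of the cell line could not be checked. Markers of every kind below were listed in the authors' deposited table, so being listed does not tell cell types apart. A difference between the sets gives no level. The marker values are given as descriptions only. All 3 epithelial markers (EPCAM, KRT8 and KRT18) were listed and called higher, between 0.55 and 1.24, and POU2F3, the tuft cell-like subtype factor, was called lower (-1.71) and YAP1, a marker of another subtype, higher (0.35), both in the authors' deposited table. Of 5 neuronal markers, 2 were called higher and 1 lower, of 4 fibroblast markers 2 lower, and of 4 leukocyte markers 3 were listed and none called in the authors' deposited table. The part of these differences in the protocadherin values was not tested. In bulk RNA, fewer cells expressing a gene and less RNA per cell cannot be told apart.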

How the data were processed

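RNA of 6 samples was sequenced with paired ends of 150 bases, per the labels' protocols. Tools named in the submitters' processing notes are STAR, Trimmomatic, DESeq2 and HTSeq, with build hg38 and without roles, versions or settings. Per the file headers, the authors deposited for each gene the log2 fold change between D to F and A to C with its raw and adjusted p-value. No source says whether shrinkage was applied. The 36 columns of values per library in the 2 tables were not used, because their letters match no sample's label; depth, means and standard errors are therefore not given, and the planned count model was not run. No test in the text goes beyond the authors' deposited p-values, so the replicate spread enters only through them, and nothing says that samples came from separate cultures beyond the design text, which calls them biological replicates.

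An adjusted p of exactly 1 (977 genes) was taken as none; over the other 15976 genes the deposited values matched a Benjamini-Hochberg adjustment within a relative 0.001, with code tested on simulated data. Positive values were read as higher in D to F because the table names that set first. Coordinates, exons and transcripts are GENCODE 29; first exons were aligned with MAFFT 7.526; promoter windows are from RefSeq. All called members are named, uncalled ones by range or extreme and, beyond that rule, after their values were seen; list genes were named by fold change, smallest p or, for roles, after their values were seen. Members and lists were chosen with earlier results of these data known. Python 3.11.15, pandas 2.3.3, numpy 2.4.6 and matplotlib 3.10.9 were used.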

Additional observations from a re-analysis of the deposited data

How the results depend on the processing

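The count of 35 members lower was between 31 and 35 under 6 alternatives to the reported setting: an adjusted p under 0.01 (31), an unadjusted p (35), at least 2-fold with (34) and without (34) centring on the median of genes with an adjusted p (0.05), adjustment over all genes of the table (35), and only members with at least 50% of their 150-base windows in no other member (33). The last of these left 5 alpha, 15 beta and 13 gamma members. No member was called higher under any of the 6. At an adjusted p under 0.01, PCDHA8, PCDHA10, PCDHGA8 and PCDHGC4 lost their calls, and at 2-fold PCDHA10 did. No member could change sign, since every setting used the deposited fold change, lowered only by 0.05 under centring. The member nearest 0 was PCDHA6, at -0.33. At 2-fold the counts of the gene lists were smaller too, for the kinases and adaptors 1 lower in place of 6. No paired analysis was possible because no label ties the columns of single libraries to samples and their replicate numbers. For the same reason leaving out replicates, another count model and another normalization were not run, and depth is unknown here.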
